A study of Mus musculus with 12 samples.

Results

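The genes described here are 9 genes by which resting (homeostatic) microglia are recognised, P2ry12, P2ry13, Gpr34, Cx3cr1, Csf1r, Siglech, Selplg, Tmem119 and Sall1. They were taken by symbol from the 24340 rows of the expression table, and all 9 were found. Microglia are the resident macrophages of the retina and brain, and they survey the tissue with fine processes, clear debris and prune synapses. In the undisturbed state they carry receptors for nucleotides, for the neuronal chemokine fractalkine and for the growth factors CSF1 and IL-34, and a program of transcription factors maintained by TGF-beta keeps these genes on. After nerve injury many of these genes are known to be turned down in single microglia, while macrophages that enter from the blood share some of them, such as Csf1r, Cx3cr1 and Selplg.

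RNA was sequenced from both retinas of 6 mice aged 12 to 16 weeks. Every mouse, controls included, carried the p16-3MR transgene, a fusion of Renilla luciferase, a red fluorescent protein and a viral thymidine kinase driven by the p16 regulatory region. In each mouse the intraocular pressure (IOP) of one eye was held at 85 to 90 mm Hg for 60 min, the contralateral eye was left as the control, and both retinas were taken on day 3. Mice 1, 2 and 5 received ganciclovir (GCV, 25 mg/kg once a day by intraperitoneal injection), a prodrug that the kinase turns toxic, and mice 3, 4 and 6 received PBS. This gave 4 groups of 3 libraries, named ctrl, IOP, ctrl-GCV and IOP-GCV, with each IOP retina paired to a control retina of the same animal. The kinase acts only where the p16 region is active, and whole retinas were sequenced, so a value is an average over neurons, glia, vessels and any blood cells present.

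Values are FPKM (fragments per kilobase of exon, relative to library size). Depth was estimated from the steps between low values at 6740000 to 9040000 fragments in 11 libraries and 3950000 in the IOP retina of mouse 6, which also had the fewest rows above 0 (14844 against 16044 to 16593). The IOP-GCV retina of mouse 5 stood apart in another way. The summed level of 11 monocyte and neutrophil markers was 2517 FPKM there and 180 to 749 FPKM in the other 5 IOP retinas. Control retinas had 9.61 to 47.6 FPKM for the same sum. The averaged IOP effect on the members is also given without these 2 libraries, as are other values or calls that moved without them.

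The promoters of the members are shown first for the genes that the results turn on. P2ry12 and P2ry13 are neighbours on chromosome 3 of which P2ry13 alone passed the test below, Cx3cr1 was higher in the IOP retina of every mouse and Siglech was lower in every mouse. RefSeq windows of 300 bases (250 before to 50 after the start site, GRCm38.p6, 5′ to 3′ on the gene's strand) were at hand for 5 of the 9 members. The window of P2ry12 lies at chr3:59262936-59263235 (minus strand), that of P2ry13 at chr3:59210833-59211132 (minus strand), that of Cx3cr1 at chr9:120068247-120068546 (minus strand) and that of Siglech at chr7:55767934-55768233 (plus strand). Capitals mark a match to one of 3 motifs searched on both strands.
P2ry12: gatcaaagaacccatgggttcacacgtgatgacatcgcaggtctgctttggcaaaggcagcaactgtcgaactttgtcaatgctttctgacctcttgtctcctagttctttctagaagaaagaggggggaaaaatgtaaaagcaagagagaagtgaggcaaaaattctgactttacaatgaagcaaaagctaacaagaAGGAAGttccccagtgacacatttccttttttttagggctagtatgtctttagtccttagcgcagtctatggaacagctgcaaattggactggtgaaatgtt
P2ry13: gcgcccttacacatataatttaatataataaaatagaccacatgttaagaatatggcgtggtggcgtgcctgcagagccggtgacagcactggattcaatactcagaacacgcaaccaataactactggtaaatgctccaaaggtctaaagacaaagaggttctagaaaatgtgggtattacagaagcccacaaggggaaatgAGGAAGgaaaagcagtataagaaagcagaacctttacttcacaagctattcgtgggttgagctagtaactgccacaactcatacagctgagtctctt
Cx3cr1: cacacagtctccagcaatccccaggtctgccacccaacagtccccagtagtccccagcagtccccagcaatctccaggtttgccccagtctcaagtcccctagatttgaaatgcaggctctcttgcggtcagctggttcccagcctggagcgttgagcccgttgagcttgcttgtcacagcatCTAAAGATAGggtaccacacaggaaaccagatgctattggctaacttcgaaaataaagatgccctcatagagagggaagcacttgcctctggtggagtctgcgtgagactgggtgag
Siglech: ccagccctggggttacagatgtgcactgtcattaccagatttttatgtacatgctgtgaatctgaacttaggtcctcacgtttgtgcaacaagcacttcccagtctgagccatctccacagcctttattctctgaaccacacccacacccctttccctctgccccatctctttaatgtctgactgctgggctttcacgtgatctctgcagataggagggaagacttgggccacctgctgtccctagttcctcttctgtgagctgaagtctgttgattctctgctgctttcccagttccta

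The motifs were AGGAAG, the core bound by PU.1, a loose form of the MEF2 site (CTA and TAG with any 4 bases between them) and a loose form of the interferon response element. AGGAAG began 52 bases before the RefSeq start of P2ry12 and 47 bases before that of P2ry13, and it was also found in 1 of the 3 windows of Sall1. The start used for P2ry12, and that of the Sall1 window with the match, was not found among the GENCODE transcript starts, so these positions hold for the RefSeq start only. Among 32851 promoters of this length 35.4% held AGGAAG, so a match is common. The MEF2 form was found in Cx3cr1, 67 bases before the start, and in 3.69% of all promoters. The interferon form was found in none of the members' windows and in 3.44% of all promoters. None of the 3 was found in the window of Siglech, which says only that these letters are absent there.

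Between IOP and control retinas, compared by group means without pairing the retinas of a mouse, 4 of these genes were called higher 3 days after IOP elevation and 1 was called lower. With the mouse as a block, which pairs them, 2 were called higher (Selplg and Cx3cr1) and 1 lower (Siglech). With the IOP effect averaged over the mice with and without GCV, the log2 fold change of the genes called higher went from 0.52 for P2ry13 and 0.89 for Cx3cr1 to 1.26 for Selplg and 1.49 for Csf1r, and that of Siglech was -0.56. Tmem119, P2ry12 and Gpr34, with values above 0, and Sall1, slightly below 0, did not pass the test. So 5 of 9 members were called by limma at an adjusted p under 0.05 (4 higher and 1 lower), where 12.2% of the 18509 rows tested were called, 6.76% as higher and 5.44% as lower. With the mouse as a block, 3 of the 9 were called against 7.3% of all rows. Without the 2 libraries that stood apart 4 of the 9 were called, against 8.8% of all rows, P2ry13 being the one lost. In whole retinas, more or fewer cells of a type and more or less RNA per cell cannot be told apart. The plot of levels in each retina shows the values behind these counts.

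**Figure D1:**
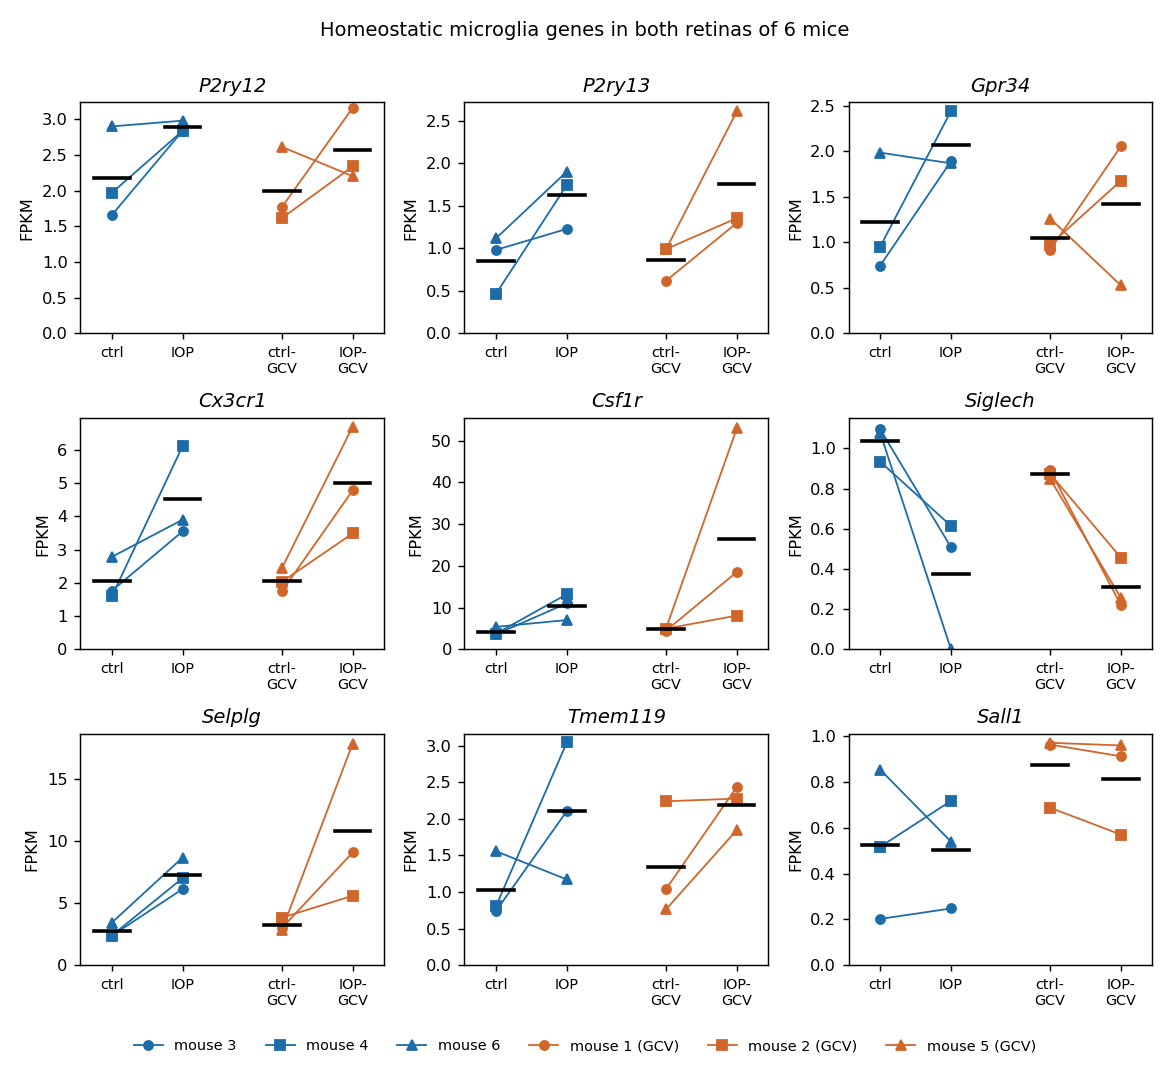
FPKM (vertical axes, from 0) of the 9 genes in the ctrl, IOP, ctrl-GCV and IOP-GCV retinas; lines join the 2 eyes of a mouse, symbols mark the mice and black bars are means of 3. P2ry13, Cx3cr1, Csf1r and Selplg were higher and Siglech was lower in all 6 IOP retinas than in any control retina, and the IOP-GCV retina of mouse 5 reached 52.9 FPKM for Csf1r.

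The purine receptors were measured first. P2ry12, the ADP receptor that guides microglial processes toward injured cells, lies at chr3:59216271-59262985. Its level was 1.66, 1.97 and 2.90 FPKM in the ctrl retinas of mice 3, 4 and 6 and 2.84, 2.84 and 2.98 FPKM in their IOP retinas. In mice 1, 2 and 5 it was 1.77, 1.61 and 2.61 FPKM in ctrl-GCV and 3.16, 2.34 and 2.20 FPKM in IOP-GCV retinas. The control retinas of mice 5 and 6 were already at the level of the IOP retinas, and the groups overlapped. The averaged log2 fold change of FPKM + 1 was 0.28 (SE 0.14, limma adjusted p = 0.196), with 5 of 6 mice higher, and 0.31 without the 2 libraries that stood apart (limma adjusted p = 0.232).

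P2ry13, a second ADP receptor at chr3:59207892-59210882, was lower in level than P2ry12. Its ctrl values were 0.981, 0.465 and 1.12 FPKM and its IOP values 1.23, 1.74 and 1.90 FPKM. With GCV the control retinas had 0.618, 0.990 and 0.987 FPKM and the IOP retinas 1.30, 1.35 and 2.61 FPKM. Every IOP retina was above every control retina, a pattern that 5.47% of all rows shared. P2ry13 rose by a log2 fold change of 0.52 (SE 0.15, limma adjusted p = 0.0487), just inside the threshold. The call was lost with the mouse as a block (limma adjusted p = 0.0672), without the 2 libraries that stood apart (0.38, limma adjusted p = 0.117), with a pseudocount of 0.1 (limma adjusted p = 0.0605) and without any single library other than the IOP-GCV retina of mouse 1 (limma adjusted p from 0.0535 to 0.116).

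Gpr34, a receptor for lysophosphatidylserine at chrX:13622650-13640859, had 0.743, 0.950 and 1.99 FPKM in ctrl and 1.89, 2.44 and 1.87 FPKM in IOP retinas. In mice given GCV it had 0.917, 0.975 and 1.26 FPKM in control and 2.05, 1.68 and 0.527 FPKM in IOP retinas. The lowest of all 12 values was that of the IOP-GCV retina of mouse 5, where the leukocyte markers were highest, and the ctrl retina of mouse 6 was among the high ones. Gpr34 was thus higher in 4 mice and lower in mice 5 and 6, with an averaged log2 fold change of 0.34 (SE 0.19, limma adjusted p = 0.266). Its 2 lower pairs hold the 2 libraries that stood apart, and without those the value was 0.51 (SE 0.16, limma adjusted p = 0.095).

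The receptors for fractalkine and for CSF1 differed more. Cx3cr1, the receptor for fractalkine at chr9:120048683-120068296, had 1.76, 1.59 and 2.78 FPKM in ctrl and 3.55, 6.11 and 3.90 FPKM in IOP retinas. Its values with GCV were 1.74, 2.03 and 2.44 FPKM in control and 4.78, 3.48 and 6.70 FPKM in IOP retinas. The 6 IOP retinas all lay above the 6 control retinas. Cx3cr1 rose by a log2 fold change of 0.89 (SE 0.18, limma adjusted p = 0.014, and 0.0428 with the mouse as a block), and it was 0.83 without the 2 libraries that stood apart (limma adjusted p = 0.0281).

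Csf1r, the receptor for CSF1 and IL-34 on which microglia depend for survival, lies at chr18:61105572-61131139 and was the most abundant member, with a mean of 11.5 FPKM over the 12 libraries. It had 3.57, 3.73 and 5.37 FPKM in ctrl and 11.01, 13.2 and 7.002 FPKM in IOP retinas. With GCV it had 4.43, 4.93 and 4.95 FPKM in control and 18.5, 8.07 and 52.9 FPKM in IOP retinas. No IOP retina overlapped a control retina, but the IOP retinas differed widely among themselves. Csf1r rose by a log2 fold change of 1.49 (SE 0.36, limma adjusted p = 0.0287), and by 1.27 without the 2 libraries that stood apart (limma adjusted p = 0.0109). With the mouse as a block the adjusted p from limma was 0.052. The call was also lost without the IOP retina of mouse 3 or without any one of the 6 control retinas (limma adjusted p from 0.0586 to 0.0799).

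Among the surface proteins, Siglech and Selplg moved in opposite directions. Siglech, a sialic acid-binding lectin found on microglia and plasmacytoid dendritic cells, lies at chr7:55768154-55779448. It had 1.10, 0.935 and 1.08 FPKM in ctrl retinas and 0.508, 0.615 and 0 FPKM in their IOP partners. With GCV it had 0.891, 0.873 and 0.848 FPKM in control and 0.220, 0.456 and 0.255 FPKM in IOP retinas. The 6 control values lay close together and every IOP retina was below them, which held for 2.44% of all rows. Siglech fell by 0.56 on the log2 scale (SE 0.11, limma adjusted p = 0.0145, and 0.0444 with the mouse as a block), and without the 2 libraries that stood apart it fell by 0.44 (limma adjusted p = 0.00673). These values rest on few reads, an estimated 12.2 to 19.7 fragments in control retinas and 0 to 11.3 in IOP retinas, the 0 being in the shallowest library. Adding 0.1 in place of 1 to the values gave -1.49 on the log2 scale, which did not pass (limma adjusted p = 0.0516). Ccr9, a marker of plasmacytoid dendritic cells, was at 0 to 0.255 FPKM in control and 0.0883 to 0.303 FPKM in IOP retinas.

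Selplg, the P-selectin ligand that most leukocytes carry, lies at chr5:113817798-113832528. It had 2.37, 2.39 and 3.43 FPKM in ctrl and 6.15, 7.03 and 8.69 FPKM in IOP retinas. In mice given GCV it had 2.99, 3.84 and 2.81 FPKM in control and 9.10, 5.60 and 17.9 FPKM in IOP retinas. The groups did not overlap, and the difference was 1.08 to 1.25 on the log2 scale in the 3 mice without GCV and 0.45 to 2.31 in the 3 with it. Selplg rose by a log2 fold change of 1.26 (SE 0.23, limma adjusted p = 0.00918, and 0.0356 with the mouse as a block), and by 1.00 without the 2 libraries that stood apart (limma adjusted p = 0.00797).

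Tmem119, a membrane protein that separates microglia from macrophages of the blood, lies close to Selplg at chr5:113793729-113800396. It had 0.741, 0.804 and 1.56 FPKM in ctrl and 2.11, 3.05 and 1.17 FPKM in IOP retinas. With GCV its values were 1.04, 2.24 and 0.762 FPKM in control and 2.44, 2.28 and 1.85 FPKM in IOP retinas. It was higher in 5 of 6 mice and lower in mouse 6, and the ctrl-GCV retina of mouse 2 was as high as the IOP retinas. The averaged log2 fold change was 0.54 (SE 0.20, limma adjusted p = 0.0986), and 0.70 without the 2 libraries that stood apart (limma adjusted p = 0.0766).

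Sall1, the transcription factor that sets microglial identity, lies at chr8:89027242-89044162 and was below 1 FPKM in every library. It had 0.202, 0.517 and 0.855 FPKM in ctrl and 0.248, 0.718 and 0.540 FPKM in IOP retinas. With GCV it had 0.964, 0.688 and 0.972 FPKM in control and 0.913, 0.571 and 0.961 FPKM in IOP retinas. The groups overlapped, and 2 of 6 mice were higher in the IOP retina. The averaged log2 fold change was -0.03 (SE 0.12, 95% interval -0.31 to 0.24, limma adjusted p = 0.889), and -0.07 without the 2 libraries that stood apart (limma adjusted p = 0.781). Sall1 is also made by other cells of the body, and its source in these retinas was not tested.

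**Figure D2:**
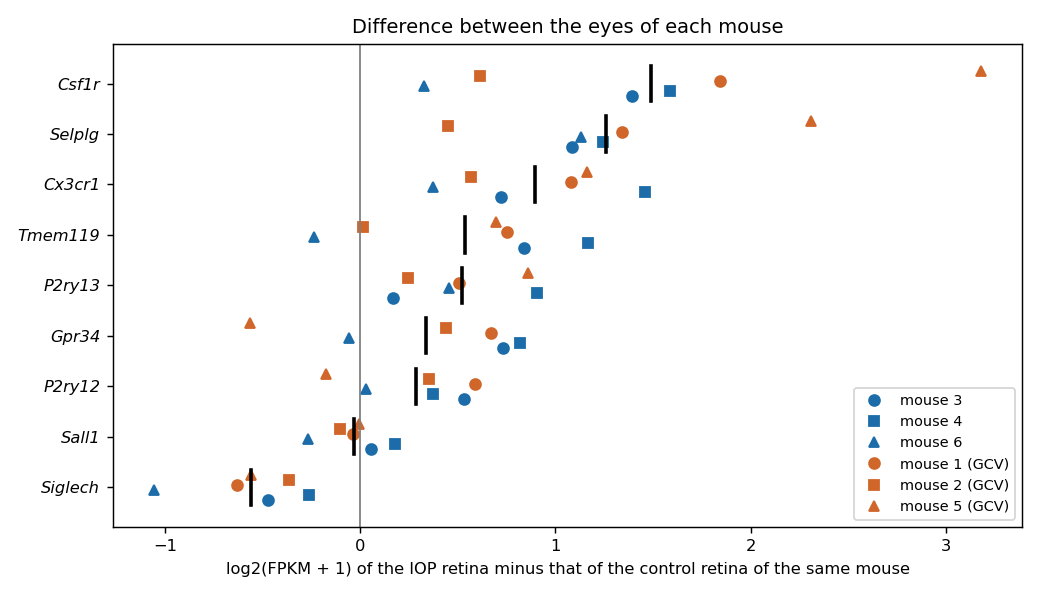
Horizontal axis, log2(FPKM + 1) of the IOP retina minus that of the control retina of the same mouse; each symbol is 1 mouse (blue without GCV, orange with GCV) and each black bar the mean of 6 for the gene named on the vertical axis. All 6 mice lie above 0 for Csf1r, Selplg, Cx3cr1 and P2ry13 and below 0 for Siglech, and mouse 5 spans from -0.57 for Gpr34 to 3.18 for Csf1r.

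Taken mouse by mouse, the members were higher in the IOP retina in 40 of 54 pairs of values and lower in 14. These 54 pairs are 9 genes in the same 6 mice and are not independent. Among all rows, 10.7% were higher in the IOP retina of all 6 mice and 10.1% were lower in all 6. Of the members, 4 were higher in all 6 mice and 1, Siglech, was lower in all 6. The median difference over the 9 members was 0.72 in mouse 3, 0.90 in mouse 4 and 0.03 in mouse 6 on the log2 scale. It was 0.67 in mouse 1, 0.35 in mouse 2 and 0.69 in mouse 5, and the median of all genes was 0.00 in each mouse. Mouse 6, with the shallow IOP library, and mouse 5, with the high leukocyte markers, each had 5 members higher and 4 lower, while the other 4 mice had 7 or 8 higher. In mouse 5 the members spread widely on the log2 scale, from Csf1r (3.18), Selplg (2.31), Cx3cr1 (1.16), P2ry13 (0.86) and Tmem119 (0.69), which were higher, to Sall1 (-0.0085), P2ry12 (-0.17), Siglech (-0.56) and Gpr34 (-0.57), which were lower.

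Within each treatment the question was whether IOP elevation changed these genes in 3 mice alone. None of the 9 passed at an adjusted p under 0.05 by limma without GCV, where 1.65% of rows were called, and 4 of the 9 had an unadjusted p under 0.05, as did 18.9% of rows. None passed with GCV either, where 1.8% were called, and 5 of the 9 had an unadjusted p under 0.05, as did 19.2% of rows. Siglech had a log2 fold change of -0.60 (SE 0.16, limma adjusted p = 0.105) without GCV and -0.52 (SE 0.16, limma adjusted p = 0.13) with it. For Selplg the values were 1.15 (SE 0.32, limma adjusted p = 0.122) and 1.37 (SE 0.32, limma adjusted p = 0.0658), and for Cx3cr1 they were 0.85 (SE 0.25, limma adjusted p = 0.143) and 0.94 (SE 0.25, limma adjusted p = 0.0954).

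Single libraries decided some of these calls. Without the IOP retina of mouse 4, Siglech passed in the mice without GCV (-0.73, limma adjusted p = 0.0217), while without the shallow IOP retina of mouse 6, where it was at 0, it was at -0.38 (limma adjusted p = 0.121). Without the IOP-GCV retina of mouse 5, Csf1r was at 1.21 in the mice with GCV (limma adjusted p = 0.195). Without the IOP-GCV retina of mouse 2, Csf1r (limma adjusted p = 0.0105), Selplg (limma adjusted p = 0.0111) and Cx3cr1 (limma adjusted p = 0.0491) passed in the mice with GCV. With both libraries that stood apart left out, Selplg passed without GCV (1.03, limma adjusted p = 0.0426) and Siglech with it (-0.49, limma adjusted p = 0.0458).

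**Figure D3:**
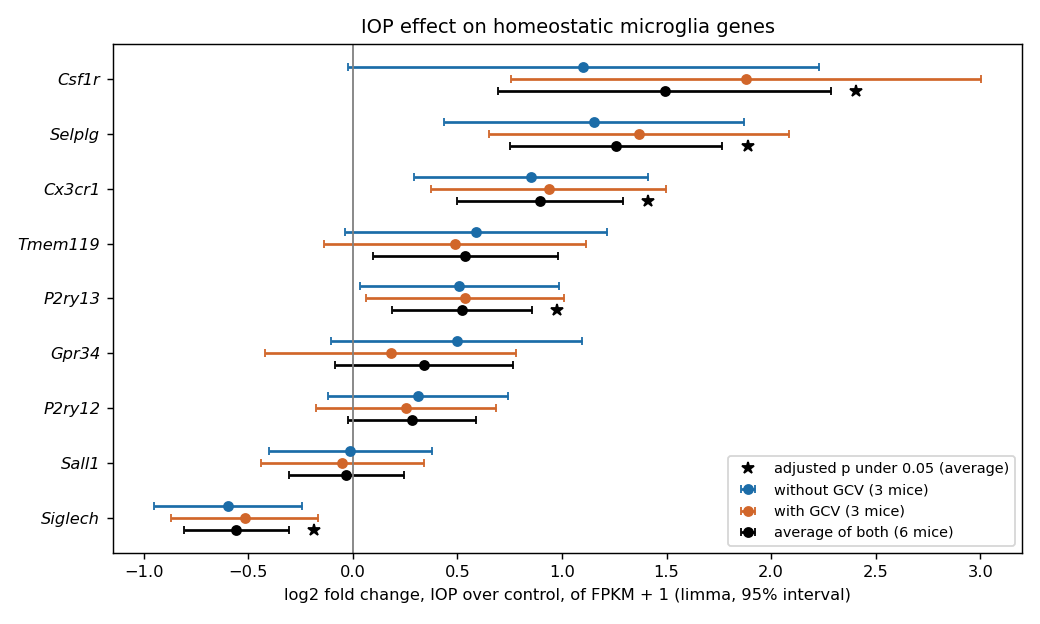
Horizontal axis, log2 fold change of FPKM + 1, IOP over control, with the 95% interval from limma; blue, 3 mice without GCV, orange, 3 mice with GCV, black, the average of both, and stars mark an adjusted p under 0.05 for the average. The blue and orange intervals overlap for all 9 genes, and those of Csf1r are the widest.

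Whether GCV altered the response was asked by the interaction, the IOP effect with GCV minus that without. None of the 9 members and 0% of rows passed by limma, 0 of the 9 had an unadjusted p under 0.05, and 1.93% of rows did. The largest interaction was that of Csf1r at 0.78 on the log2 scale (95% interval -0.81 to 2.37). It ranged from 0.10 to 1.39 with each library left out, and without the 2 libraries that stood apart it was -0.13. For Selplg the interval was -0.80 to 1.23, for Cx3cr1 -0.71 to 0.88 and for Siglech -0.42 to 0.58. For P2ry12 the interaction was -0.05 (95% interval -0.66 to 0.55), and for Tmem119 it was -0.10 (-0.99 to 0.78).

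The same held when retinas of the same kind were compared. Between IOP-GCV and IOP retinas none of the members and 0% of rows passed by limma, and 0 of 9 members and 4.18% of rows had an unadjusted p under 0.05. Csf1r had a log2 fold change of 0.94 there (95% interval -0.19 to 2.06) and Gpr34 one of -0.40 (-0.997 to 0.203). Both values moved with single libraries. Without the IOP-GCV retina of mouse 5 they were 0.26 and -0.10, without that of mouse 2 Csf1r was at 1.55, and without that of mouse 1 Gpr34 was at -0.60. With both libraries that stood apart left out, Csf1r was at 0.03 and Gpr34 at -0.14. Between ctrl-GCV and ctrl retinas, which shows GCV without IOP elevation, none of the members and 0% of rows passed by limma, and 0 of 9 members and 1.59% of rows had an unadjusted p under 0.05. Sall1 was at 0.32 in that comparison (95% interval -0.07 to 0.70) and Siglech at -0.12 (-0.47 to 0.23). With each library left out Sall1 ranged from 0.16 to 0.47 and Siglech from -0.16 to -0.10.

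The ligands and partners of these receptors were followed as a list of 13 genes, of which 5 were called higher and 1 lower for the averaged IOP effect, with a median log2 fold change of 0.12 beside 0.0089 for all genes. Csf1, a ligand of Csf1r, rose by a log2 fold change of 1.06 (SE 0.20, limma adjusted p = 0.0122), from 1.09 to 1.59 FPKM in control to 2.28 to 6.96 FPKM in IOP retinas. Il34, its other ligand and a product of neurons, was at -0.63 (SE 0.35, limma adjusted p = 0.265) and was lower in 4 of 6 mice. Cx3cl1, the fractalkine of neurons, was lower in all 6 mice, with 24.1 to 44.8 FPKM in control and 4.69 to 26.8 FPKM in IOP retinas, but did not pass (-1.16, SE 0.37, limma adjusted p = 0.067).

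Of the TGF-beta genes, Tgfb1 rose by 1.83 (SE 0.35, limma adjusted p = 0.0118) and the receptor Tgfbr2 by 0.88 (SE 0.19, limma adjusted p = 0.0206) on the log2 scale. Tgfb2, the more abundant ligand at 13.2 to 15.5 FPKM in control retinas, was at 0.05 (limma adjusted p = 0.793), the receptor Tgfbr1 at 0.32 (limma adjusted p = 0.222) and the signal carrier Smad3 at -0.09 (limma adjusted p = 0.786). Entpd1 and Nt5e, the enzymes that turn extracellular ADP, the ligand of P2ry12 and P2ry13, into AMP and AMP into adenosine, went in opposite directions. Entpd1 rose by 0.96 (SE 0.14, limma adjusted p = 0.00322) and Nt5e fell by 0.76 (SE 0.13, limma adjusted p = 0.00755), from 54.1 to 75.5 FPKM in control to 28.2 to 48.2 FPKM in IOP retinas. Tyrobp, the adaptor through which Siglech signals, rose by 3.17 (SE 0.37, limma adjusted p = 0.000955), from 6.03 to 13.5 FPKM to 47.3 to 249 FPKM. The selectins that bind Selplg were hardly detected, with Selp at 0 to 0.489 FPKM (limma adjusted p = 0.44) and Sele at 0 to 0.0892 FPKM (limma adjusted p = 0.687) over all 12 retinas. Without the 2 libraries that stood apart the list again had 5 called higher and 1 lower, Cx3cl1 was at -0.75 (limma adjusted p = 0.214) and Il34 at -0.25 (limma adjusted p = 0.415). The call of Tgfbr2 held in 9 of 12 fits with 1 library left out.

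Of 13 other genes typical of homeostatic microglia 7 were called higher and none lower, with a median log2 fold change of 0.89. When the 2 libraries that stood apart were left out it was 8, with a median of 0.79, Cd33 (named here after its values were seen) being the one added (0.36, limma adjusted p = 0.0442, against 0.89, limma adjusted p = 0.119, with all libraries). Among the most abundant were Olfml3, a secreted protein, which rose by 1.31 (SE 0.28, limma adjusted p = 0.0192), and Fcrls, an Fc receptor-like scavenger protein, by 1.97 (SE 0.24, limma adjusted p = 0.00106). Among 9 myeloid transcription factors 5 were called higher and none lower, with a median of 0.73. The 3 most abundant of them, which cells other than macrophages also express, did not pass: Mef2c was at -0.28 (limma adjusted p = 0.309), Mef2a at 0.13 (limma adjusted p = 0.64) and Bhlhe41 at -0.01 (limma adjusted p = 0.979). Without the 2 libraries that stood apart Mef2c was called lower (-0.35, limma adjusted p = 0.0121), Mef2a was at -0.08 and Bhlhe41 at -0.17. Olfml3 was called in 8 of 12 fits with 1 library left out. Spi1, which encodes PU.1 and is named here after its values were seen, rose by 2.58 (SE 0.32, limma adjusted p = 0.00128), from 0.658 to 1.96 FPKM in control to 7.54 to 34.5 FPKM in IOP retinas.

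Genes of macrophages in general had larger differences. Of 14 pan-macrophage genes 13 were called higher, with a median log2 fold change of 2.54 beside 0.52 for the 9 members. Their 3 most abundant genes were the protease Ctss, which rose by 2.98 (limma adjusted p = 0.00127), the Fc receptor chain Fcer1g, by 3.78 (limma adjusted p = 0.00275), and the complement gene C1qb, by 2.77 (limma adjusted p = 0.000417). The difference of the members, averaged over the 9, was below that of the 14 pan-macrophage genes in each of the 6 mice, by 2.04, 1.29, 2.24, 1.54, 2.73 and 2.31 on the log2 scale in mice 1 to 6. The gap was -2.03 ± 0.43 (SD, n = 3 mice) without GCV and -2.02 ± 0.72 (SD, n = 3 mice) with it. Each of the 9 members on its own lay below the pan-macrophage mean in all 6 mice, on average Csf1r and Selplg by the least and Siglech by the most. Low values weigh on this gap, since adding 1 to an FPKM value shrinks the change of genes near 1 FPKM more than that of abundant genes. Genes of disease-associated microglia lay between, with 14 of 15 called higher and a median of 1.16, and the 3 most abundant were Apoe (0.96, limma adjusted p = 0.0303), Ctsd (1.21, limma adjusted p = 0.0174) and Ctsb (0.92, limma adjusted p = 0.0283). Without the 2 libraries that stood apart 14 of 14 pan-macrophage and 11 of 15 disease-associated genes were called higher, with medians of 2.23 and 1.00, and Apoe lost its call (limma adjusted p = 0.0796, and 0.058 with the mouse as a block). In mice 1 to 4, which do not include those libraries, the gap lay between -2.24 and -1.29. With 1 library left out Apoe and Ctsb were each called in 4 of 12 fits and Ctsd in 10.

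**Figure D4:**
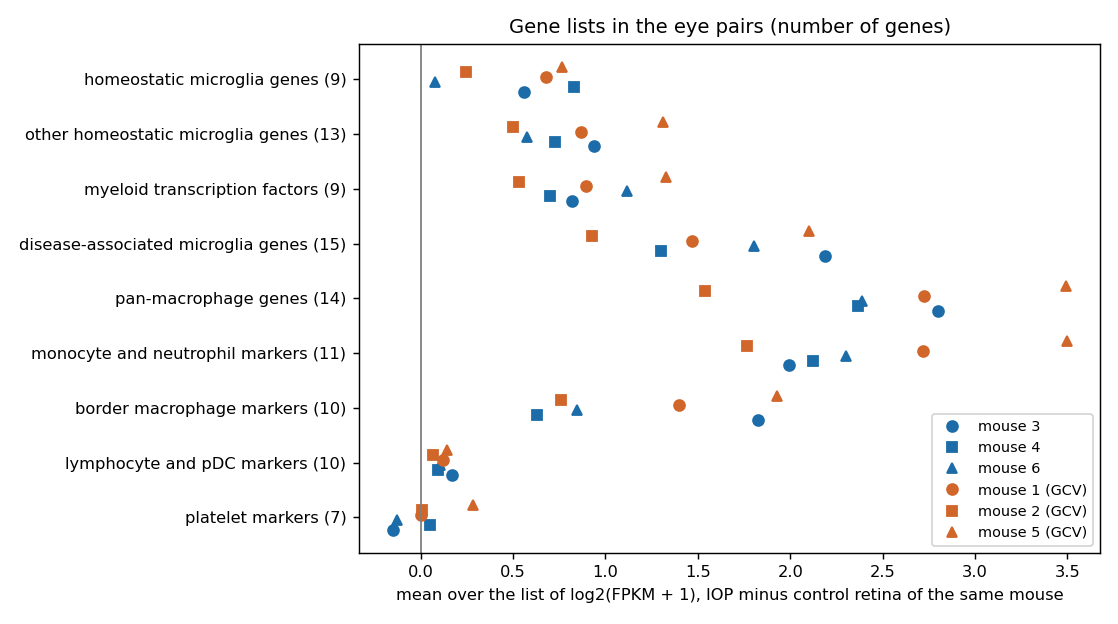
Horizontal axis, mean over each list of the log2(FPKM + 1) difference between the IOP and control retinas of a mouse; vertical axis, the lists with their number of genes, and each symbol 1 mouse (blue without GCV, orange with GCV). The 9 homeostatic genes lie between 0.08 and 0.83 in the 6 mice, and the pan-macrophage genes lie to the right of them in each mouse.

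Markers of cells from the blood were also compared. Of 11 monocyte and neutrophil markers 9 were called higher, with a median log2 fold change of 2.39. In control retinas Chil3 was at 0 in all 6 libraries, and Ly6c2 and Retnlg were at 0 in the 3 ctrl-GCV retinas. The summed level was 9.61 to 47.6 FPKM in ctrl, 330 to 749 in IOP, 11.6 to 37.0 in ctrl-GCV and 180 to 2517 in IOP-GCV retinas. Its 3 most abundant genes were Lyz2, which rose by 5.21 (limma adjusted p = 0.00139), S100a8, by 3.63 (limma adjusted p = 0.0142), and S100a9, by 2.73 (limma adjusted p = 0.027). Without the 2 libraries that stood apart 7 of the 11 were called, with a median of 2.12, and S100a9 was at 1.96 (limma adjusted p = 0.0507). The IOP-GCV retina of mouse 5 had the highest sum, and it also had the highest Csf1r, Selplg, Cx3cr1 and P2ry13 of all 12 retinas. The IOP retina of mouse 6, the shallow library, had the next highest sum (749 FPKM). There P2ry13 (1.90 FPKM) was next highest too, but Csf1r (7.002 FPKM) was the lowest of the IOP retinas. Selplg (8.69 FPKM) and Cx3cr1 (3.90 FPKM) lay there within the range of the other IOP retinas. The part of blood-borne cells in the rise of these 4 genes was not tested.

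Of 10 markers of border macrophages (the macrophages of vessels and meninges) 4 were called higher, with a median of 1.10. Pf4 rose by 2.79 (limma adjusted p = 0.0302) and Ms4a7 by 3.19 (limma adjusted p = 0.000948), and F13a1 was at 1.87 (limma adjusted p = 0.0604). With those 2 libraries left out 2 of the 10 were called, and Pf4 was at 2.15 (limma adjusted p = 0.076) and F13a1 at 1.18. Lymphocyte and plasmacytoid dendritic cell markers were near 0 in all groups, with a sum of at most 1.82 FPKM over 10 genes and 1 of 10 called (none with the mouse as a block). Of 7 platelet markers, which matter since platelets also carry P2ry12, 1 was called (none with the mouse as a block), and their sum was 0.712 to 2.87 FPKM in control and 0.927 to 5.05 FPKM in IOP retinas. None of 5 red blood cell markers was called by limma, 0 had an unadjusted p under 0.05, and their median was -0.30.

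Retinal and lens markers were checked in the same way. Of 12 markers of retinal neurons and glia 5 were called lower (1 with the mouse as a block) and none higher, with a median of -0.52, and their summed level was 28780 FPKM or more in every library, so the labelled tissue carried its markers. Of 7 lens markers 4 were called higher, and their sum was 92.9 to 6113 FPKM in IOP retinas, 6742 in the ctrl-GCV retina of mouse 1 and 4.81 to 120 in the other 5 control retinas. When the 2 libraries that stood apart were left out, 3 retinal markers were called lower by limma, and the lens, lymphocyte and platelet markers called above lost their calls. For all 9 members the value of that control retina lay within the range of the other 5. The part of lens tissue or of lost neurons in the values above was not tested.

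The members fell into sets that varied alike over the 12 libraries, given here as a description. Pearson's r was 0.93 for Csf1r with Selplg, 0.92 for Cx3cr1 with Selplg and 0.90 for P2ry13 with Cx3cr1. P2ry12 and Gpr34 had an r of 0.82, and 0.75 once the group means were removed, while P2ry12 and its neighbour P2ry13 had 0.46 and 0.01. Siglech was opposite to Selplg (-0.85, and -0.41 with group means removed). All of these share the IOP contrast and the libraries, and n was 12 libraries throughout. Among 12903 other genes the 5 whose pattern was most like the mean of the members were Zcchc24 (r = 0.91), H2-Q4 (0.90), Fcrls (0.90), Pld4 (0.89) and Trim30a (0.89). With the group means removed the 5 were Ctnnb1 (0.94), Enc1 (0.93), Itpkb (0.90), Prps2 (0.89) and Etv1 (0.88). Both sets are the top of 12903 genes ranked over 12 libraries. Whether their r exceeded what such a ranking yields by chance was not tested.

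Some members share their place in the genome with other genes, and the sources do not state whether strand was used in counting. Exons of P2ry12 overlap those of Med12l on the other strand, and Med12l spans P2ry12 and P2ry13. Med12l had 1.67 to 2.30 FPKM in control and 0.437 to 1.86 FPKM in IOP retinas (-0.52, limma adjusted p = 0.0595). Its part in the values of the 2 receptors was not tested. Exons of Cx3cr1 overlap those of Gm33858 on the other strand, which was not analysed here. Exons of Csf1r overlap those of Hmgxb3 on the other strand, which was at -0.00 (limma adjusted p = 0.999). Gpr34 lies within Cask, on the other strand and with no shared exon, and Cask was at -0.28 (limma adjusted p = 0.0802).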

How the data were processed

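RNA-seq libraries were made from 12 retinas with a stranded mRNA kit and sequenced as paired ends. According to the methods, the authors counted reads on exons of RefSeq genes with HOMER, while the submitters' processing notes name TopHat2, Bowtie2, Cufflinks, Cuffdiff and mm10 without versions or roles. The deposited values are FPKM, a unit inferred from the values, in 24340 rows. The 18509 rows above 0 in at least 1 library were analysed as log2(FPKM + 1), so the fold changes of low genes are understated. A limma model (version 3.58.1 in R 4.3.3) with a mean for each of the 4 groups and a trended variance was fitted, and rows with a Benjamini-Hochberg adjusted p under 0.05 were called. The averaged IOP effect is the mean of the effects without and with GCV. Both eyes came from the same animal, so a fit with the mouse as a block was also made; the deviations of paired retinas from their group means correlated at -0.12 to 0.39 over 12910 genes.

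Library depth was inferred from how low values of genes with a single transcript step up by whole fragments, so no counting intervals were computed. Fragments per gene are estimates from RefSeq transcript lengths. Of the members, 7 reached 1 FPKM in 3 or more libraries, and Siglech and Sall1 did not. Alternatives were a pseudocount of 0.1, that minimum as a filter, the block, median-ratio scaling, only the groups compared, limma without the trend and each library left out; leaving out the 2 libraries that stood apart was chosen after seeing the data. The members and gene lists were chosen with earlier results of these data known. Genes named are the members, the 13 ligands and partners, the 3 most abundant genes of other lists and the 5 most alike in pattern. For red blood cell, platelet, lymphocyte, neuron and lens lists only counts and sums are given. Spi1, Ccr9 and the genes overlapping members were named after their values were seen. Some results are left out because the items they concern are not reported here. Coordinates and promoters are from RefSeq GRCm38.p6, the same assembly as mm10. Python 3.11.15 was used for tables (pandas 2.3.3) and figures (matplotlib 3.10.9).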

Additional observations from a re-analysis of the deposited data

How the results depend on the processing

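For the averaged IOP effect, 5 members were called, and 3 with a pseudocount of 0.1, 3 with the mouse as a block (the pairing of the eyes) and 3 to 5 with each library left out; genes called were 2258, 1351 with the block and 788 to 4499 with each library left out, the most without the IOP retina of mouse 4. Without GCV, 0 members became 1 with the 2 libraries that stood apart left out and 0 to 1 with each left out, and 306 genes became 464 (pseudocount 0.1), 75 (block), 185 (only the groups compared), 873 (2 libraries left out) and 20 to 2432 (each left out). With GCV, 0 members became 1 each with the pseudocount of 0.1, the filter and the 2 libraries left out, and 0 to 3 with each left out, and 334 genes became 535 (pseudocount 0.1), 144 (block), 7 (only the groups compared) and 62 to 697 (each left out). For the interaction, 0 genes became 3 with the 2 libraries left out and 0 to 2 with each left out, for IOP-GCV against IOP 3 and 0 to 4, and for ctrl-GCV against ctrl 1 (pseudocount 0.1), 4 (only the groups compared) and 0 to 4. The cause of these shifts was not tested. The block changed no other call of a member than those of Csf1r and P2ry13.

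Signs turned only for values that had not passed. With a pseudocount of 0.1, Sall1 without GCV was 0.0107, the interaction of P2ry13 was -0.0085, and Siglech in IOP-GCV against IOP was 0.18. With the 2 libraries left out the interaction was 0.0357 for P2ry12, -0.11 for P2ry13, -0.19 for Cx3cr1, -0.13 for Csf1r, -0.11 for Siglech and -0.071 for Selplg, and IOP-GCV against IOP was -0.0877 for P2ry13, -0.16 for Cx3cr1 and -0.0791 for Tmem119. With each library left out, Sall1 ranged from -0.17 to 0.14 without GCV, from -0.124 to 0.0505 with GCV, from -0.111 to 0.0454 averaged and from -0.19 to 0.12 for the interaction. Gpr34 ranged from -0.0172 to 0.483 with GCV and from -0.24 to 0.15 for ctrl-GCV against ctrl. For the interaction the ranges were -0.212 to 0.0874 for P2ry12, -0.18 to 0.19 for P2ry13, -0.11 to 0.28 for Cx3cr1, -0.14 to 0.21 for Siglech, -0.19 to 0.57 for Selplg and -0.34 to 0.16 for Tmem119. For IOP-GCV against IOP they were -0.16 to 0.16 for P2ry13, -0.0885 to 0.308 for Cx3cr1, -0.256 to 0.0891 for Siglech, -0.0105 to 0.748 for Selplg and -0.16 to 0.29 for Tmem119. For ctrl-GCV against ctrl they were -0.221 to 0.0791 for P2ry12, -0.14 to 0.12 for P2ry13, -0.0799 to 0.192 for Cx3cr1 and -0.0795 to 0.361 for Tmem119. Siglech, Sall1, Tmem119, Gpr34 and P2ry13 rested on fewer than 20 estimated fragments in at least 1 library, which limits their precision.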
